A study of Mus musculus with 6 samples.

Results

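Toll-like receptors and the proteins that carry their signal were followed at the mRNA level in C2C12 cells, a mouse myoblast line, after knockdown of calponin 3 (CNN3), an actin-binding protein. The 10 genes were set by name, with no threshold on a measured value: the receptors Tlr1, Tlr2, Tlr3, Tlr4 and Tlr6, the co-receptors Cd14 and Ly96, the adaptors Myd88 and Ticam1, and the kinase gene Irak1. They are 10 of the 11835 genes with an expression value, and all 10 were among the 11593 tested. The cells were transfected either with negative control siRNA (siNC, 3 libraries) or with CNN3 siRNA (siCNN3, 3 libraries), so both groups carried a transfected RNA duplex. They were also put into differentiation medium with horse serum. The methods place the first transfection at a lower cell density than the start of differentiation. No other allele or agent is given for either group. The labels call the cells mouse myotube, whereas the methods speak of differentiating myoblasts, and which CNN3 siRNA the sequenced cells received is not given in the sources used here. For differentiation experiments the methods describe a repeated transfection and 1 harvest time, without naming the sequenced cells there. The labels do not say that the libraries of a group came from separate cultures, so p-values measure only the spread between these samples.

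Toll-like receptors recognise microbial and damage-associated molecules by an ectodomain of leucine-rich repeats and signal through a cytoplasmic TIR domain. TLR2, with TLR1 or TLR6 as its partner, binds bacterial lipopeptides at the cell surface, TLR4 with its partner MD-2 binds lipopolysaccharide, and TLR3 binds double-stranded RNA in endosomes. MyD88 links the receptors other than TLR3 to IRAK kinases and NF-κB, and TRIF, encoded by Ticam1, links TLR3 and endocytosed TLR4 to interferon regulatory factors and the induction of type I interferon. Myoblasts and muscle fibres are known to express several of these receptors.

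Because double-stranded RNA is the ligand of TLR3, the control duplex and the CNN3 duplexes of the study are shown here by their sense strands. A GAPDH duplex of the same supplement belongs to neither group and is left out. Capitals mark the 19 bases that pair with the antisense strand, and the lower-case letters are the overhang.
NC siRNA: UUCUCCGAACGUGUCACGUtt
CNN3 siRNA1: GCCUAGGCAUUGGCACCAAtt
CNN3 siRNA2: CCAUUGACAUUGGCGUUAAtt
CNN3 siRNA3: GGGCACCAAUGGGUCGGAAtt
The 4 duplexes have the same paired length, and the GC content of the paired bases was 52.6% in NC siRNA, 57.9% in CNN3 siRNA1, 42.1% in CNN3 siRNA2 and 63.2% in CNN3 siRNA3. Whether a duplex itself bears on any level below was not tested.

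Of the sequences around RefSeq transcription starts of these genes, 4 with a match to an element of interferon or NF-κB signaling are shown. The receptors are known both to feed these pathways and to be induced by them. RefSeq windows of GRCm38.p6, from 250 bases before to 50 bases after a transcription start, were at hand for 7 of the 10 genes, in 10 windows. Tlr4, Cd14 and Ly96 had no window. The motifs searched on both strands were the interferon-stimulated response element (ISRE, GAAANNGAAA), the shorter IRF element AANNGAAA that every ISRE contains, the STAT element GAS (TTCNNNGAA) and the NF-κB consensus. Of all 32851 windows, 3.44% held an ISRE, 23.9% an IRF element, 8.30% a GAS and 8.46% an NF-κB match. The stretches below run 5′ to 3′ in the direction of transcription, lie on the minus strand, and have the match in capitals.
Myd88 (chr9:119340039-119340068): gagcttctcgGAAAGCGAAAgaaggagggg
Tlr3 (chr8:45410421-45410450): aagtgaatggcTTTCACTTtgtttagacac
Tlr6 (chr5:64959260-64959289): ctattctTTTCTCTTTCACTTTCtgtttga
Tlr2 (chr3:83841761-83841790): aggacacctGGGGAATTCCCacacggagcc
The Myd88 stretch holds an ISRE that begins 40 bases before the start. The Tlr3 stretch holds an IRF element on the opposite strand, 59 bases before the start, and the Tlr3 window also has 1 NF-κB match. The stretch lies before the start of the listed transcript ENSMUST00000209772.1 (45410380). It lies inside the spans of ENSMUST00000034056.11, ENSMUST00000167106.2 and ENSMUST00000211370.1, which start at 45410618 or 45410619. In 1 of the 2 windows of Tlr6 (chr5:64959117-64959416), 2 overlapping ISRE matches on the opposite strand begin 116 bases before the start. That window lies inside the span of both listed Tlr6 transcripts, which start at 64960047 and 64960097. The other Tlr6 window (chr5:64959999-64960298) covers these starts and held 0 ISRE and 0 IRF elements. The capitals of Tlr2, 173 bases before the start, match the NF-κB consensus, and its window held further NF-κB matches, the nearest 8 bases before the start, and 2 IRF elements, 191 and 145 bases before it. Irak1 had an NF-κB match 18 bases before its start, and 1 of the 2 Tlr1 windows (chr5:64932650-64932949) had an IRF element and a GAS. That Tlr1 window lies inside the span of the listed Tlr1 transcript, which starts at 64933561. The Tlr1 window that covers this start had no match to the 4 motifs. A GAS also stood in the Myd88 window and in the other Tlr6 window, and the window of Ticam1 had no match to the 4 motifs. These are matches of letters, and no binding was measured.

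Expression was given by the authors as FPKM, fragments scaled to the length of the transcript and to the fragments mapped in the library, and the transcripts of a gene were summed. The FPKM sums of the libraries lay between 322621 and 355591, and read numbers are not given, so no counting error is available. The targeted gene Cnn3 measured 62.3 ± 0.840 FPKM (SD, n = 3) in siNC and 27.9 ± 10.3 FPKM in siCNN3, without overlap between the groups. Its log2 fold change of -1.19 missed the threshold (limma, adjusted p = 0.0669), and it passed without siCNN3 replicate 2, at -1.46 (limma adjusted p = 0.0475). Replicates 1 and 2 of siCNN3 were the most alike of the pairs within a group, with a median difference between genes of 0.111 on the log2 scale, whereas the other pairs differed by 0.181 to 0.323. Without counts it cannot be tested whether this pair differs by more than sampling noise. Of the muscle markers, picked here with their values in view, Des, which encodes the intermediate filament desmin, was at 113 to 125 FPKM in siNC and 84.3 to 103 FPKM in siCNN3, without overlap. Myod1 was at 1.93 to 3.10 FPKM in siNC and 1.37 to 1.57 FPKM in siCNN3, and Myog at 1.23 to 3.07 and 0.485 to 0.907 FPKM. Myh3 was at 1.96 to 3.04 FPKM in siNC and 0.209 to 0.451 FPKM in siCNN3, and Ckm at 0.414 to 0.911 and 0 to 0.0760 FPKM. Each of these was lower in siCNN3 without overlap. Myf5 went the other way, with overlap, at 3.55 to 5.64 FPKM in siNC and 5.40 to 13.0 FPKM in siCNN3. Its log2 fold change was 0.88 (limma adjusted p = 0.238). Acta1 was at 24.6 to 33.8 FPKM in siNC and 5.35 to 6.43 FPKM in siCNN3. Of 17 macrophage and other leukocyte markers, Cd68 and Lyz2 had values and 15, including Ptprc, Adgre1, Csf1r and Itgam, were not analysed here. The summed level of these 2 was 4.72 to 10.2 FPKM in siNC and 2.81 to 4.04 FPKM in siCNN3. Of 5 endothelial markers only Tek had a value, at 0.681 to 1.37 FPKM across the 6 libraries, and the other 4 were not analysed here. In RNA of whole cultures, fewer cells that express a gene and less of its RNA per cell cannot be told apart.

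CNN3 knockdown was compared with siNC for the 10 genes as a set. None of them passed the threshold in either direction (limma on log2(FPKM + 1), Benjamini-Hochberg adjustment over all genes tested, adjusted p below 0.05). Over all 11593 genes the same fit called 200 higher in siCNN3, which is 1.73%, and 39 lower, which is 0.336%. At an unadjusted p below 0.05 there were 2 of the 10, Tlr3 and Myd88, both with the higher mean in siCNN3, against 16.1% of all genes tested. With a test that used each gene's own spread, 0 of the 10 had an unadjusted p below 0.05, against 15.5% of all genes tested. The 2 groups overlapped for each of the 10 genes, while they did not overlap for 23.1% of all genes tested. The log2 fold change was above 0 for 7 genes and below 0 for 3, with a median of 0.29 beside 0.03 over all genes tested. Without siNC replicate 1 this median was 0.16, and without siNC replicate 2 it was 0.52. Its median size, leaving out the sign, was 0.33 beside 0.21. The 95% interval covered 0 for 8 of the 10.

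**Figure D1:**
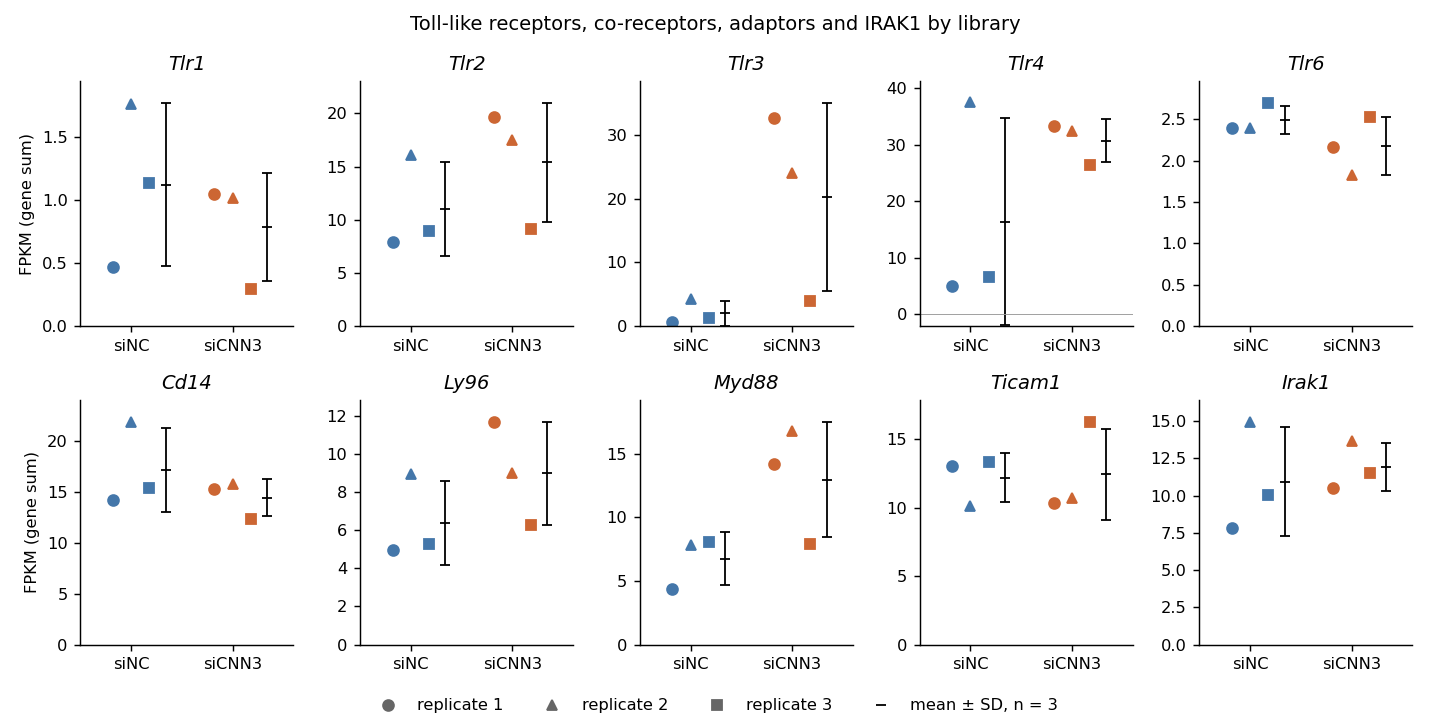
Level of each of the 10 genes in FPKM (vertical axes, summed over the transcripts of the gene) in the siNC and siCNN3 libraries, with the replicate number as the symbol and the mean ± SD (n = 3) as the bar. Tlr3 reached 32.7 and 24.1 FPKM in replicates 1 and 2 of siCNN3 but 3.93 in replicate 3, and Tlr4 was as high in siNC replicate 2 as in siCNN3.

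The receptors are taken first. TLR3 is encoded on chromosome 8 (GRCm38 chr8:45395665-45411080, minus strand). Tlr3 measured 0.593, 4.17 and 1.19 FPKM in siNC replicates 1, 2 and 3 and 32.7, 24.1 and 3.93 FPKM in siCNN3 replicates 1, 2 and 3. Replicates 1 and 2 of siCNN3 stood far above the other 4 libraries, and siCNN3 replicate 3 fell below siNC replicate 2. The means were 1.98 ± 1.92 in siNC and 20.2 ± 14.8 FPKM in siCNN3, a ratio of 10.2. The log2 fold change was 2.62 (SE 0.772, 95% interval 0.79 to 4.45, limma adjusted p = 0.158), the largest of the 10. It passed the threshold when siCNN3 replicate 3 was left out, at 3.47 (limma adjusted p = 0.0218), and with any other library left out the adjusted p was up to 0.440.

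The file resolved Tlr3 into 6 of its 9 annotated transcripts, and the libraries differed in which of them carried the level. Transcript ENSMUST00000209772.1, of 4096 bases, measured 0, 0.0430 and 1.05 FPKM in siNC and 3.83, 3.58 and 3.42 FPKM in siCNN3. This transcript was the even one across the knockdown libraries, and its groups did not overlap. The share of all transcripts without overlap was not taken. With an exact 0 in siNC replicate 1, ENSMUST00000209772.1 drops out of the sum of transcripts above 0 in all libraries given below. Its log2 fold change was 1.84 (SE 0.322) in a fit of all transcripts, with an adjusted p of 0.101 by limma, so it was not called. ENSMUST00000210013.1, a single-exon transcript of 2417 bases, was listed at 8.14 and 8.27 FPKM in siCNN3 replicates 1 and 2 but at 0.0992 in replicate 3, with 0.0766 to 0.463 FPKM in siNC. ENSMUST00000211370.1, of 707 bases, followed the same pattern, at 8.75, 7.40 and 0 FPKM in siCNN3 and 0, 0.553 and 0 in siNC. ENSMUST00000167106.2 was listed at 9.05 FPKM in siCNN3 replicate 1 and at 0 in the other 5 libraries. The longest, ENSMUST00000034056.11 of 4407 bases, overlapped between the groups, at 0.504, 2.63 and 0.0611 FPKM in siNC and 1.68, 4.54 and 0.0700 FPKM in siCNN3. It made up 85.1% and 63.0% of Tlr3 in siNC replicates 1 and 2, and its log2 fold change was 0.48 (limma adjusted p = 0.844). ENSMUST00000210996.1 stayed at or below 1.29 FPKM. The high sums of siCNN3 replicates 1 and 2 lay largely in transcripts that were near 0 in siCNN3 replicate 3.

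An exact 0 can be a failed estimate in such files, and 238 transcripts had a 0 beside a value of at least 10 FPKM within 1 group. With the transcripts that were above 0 in all libraries alone, the log2 fold change of Tlr3 was 1.52 (limma adjusted p = 0.517). With each transcript weighted by its length, an alternative chosen after seeing the data, it was 2.21 (limma adjusted p = 0.140).

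**Figure D2:**
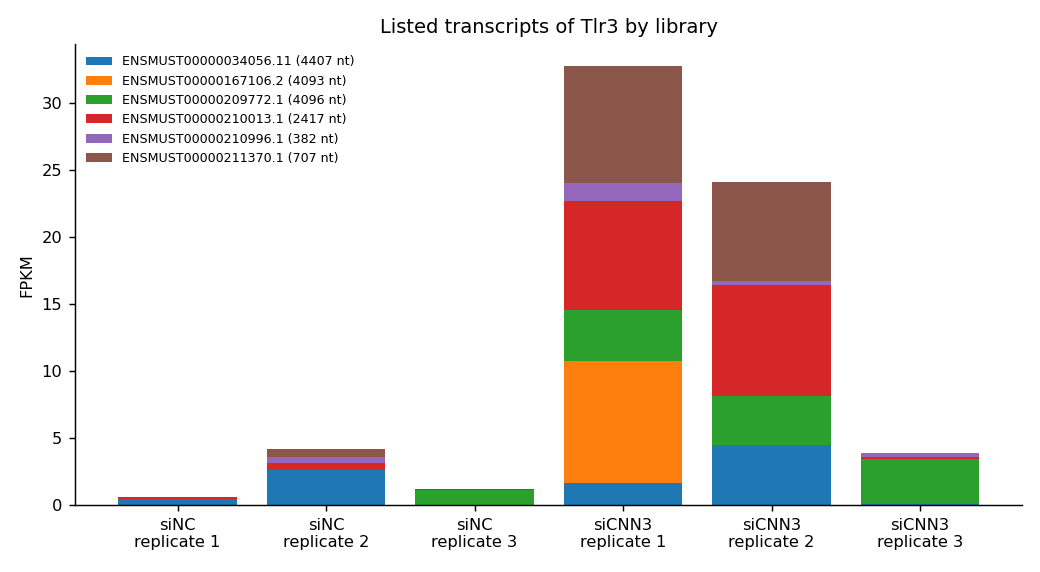
FPKM (vertical axis) of the 6 listed Tlr3 transcripts, stacked, in each of the 6 libraries. ENSMUST00000209772.1 stood at 3.42 to 3.83 FPKM in all 3 siCNN3 libraries, while ENSMUST00000210013.1 and ENSMUST00000211370.1 added 7.40 to 8.75 FPKM each in siCNN3 replicates 1 and 2.

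TLR4, the receptor of lipopolysaccharide, is encoded on chromosome 4 (chr4:66827584-66930284, plus strand), and 1 of 4 annotated transcripts had values. Tlr4 measured 5.03, 37.6 and 6.64 FPKM in siNC and 33.4, 32.5 and 26.4 FPKM in siCNN3. The 3 siCNN3 libraries were close together and the siNC libraries were not, since siNC replicate 2 was the highest of all 6. The means were 16.4 ± 18.3 and 30.8 ± 3.80 FPKM, with a log2 fold change of 1.38 (SE 0.654, 95% interval -0.17 to 2.93, limma adjusted p = 0.360). Without siNC replicate 2 the log2 fold change was 2.22 and passed the threshold (limma adjusted p = 0.0100). With any other library left out it was not called, at an adjusted p of up to 0.660, and it was lowest, at 0.88, without siNC replicate 1.

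TLR2, the common partner in the recognition of lipopeptides, is encoded by a gene with 1 transcript on chromosome 3 (chr3:83836272-83841767, minus strand). Tlr2 measured 7.91, 16.1 and 8.98 FPKM in siNC and 19.6, 17.5 and 9.08 FPKM in siCNN3. Again siNC replicate 2 was the high one of its group and siCNN3 replicate 3 the low one. The log2 fold change was 0.45 (SE 0.348, 95% interval -0.38 to 1.27, limma adjusted p = 0.577), and 0.25 without siCNN3 replicate 1 to 0.76 without siCNN3 replicate 3.

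The genes of both partners of TLR2 lie side by side on chromosome 5, Tlr1 at chr5:64924679-64933563 and Tlr6 at chr5:64952031-64960097, both on the minus strand. Tlr1, whose product pairs with TLR2 for triacylated lipopeptides, was the lowest of the 10 genes in every library, at 0.469, 1.76 and 1.14 FPKM in siNC and 1.04, 1.01 and 0.294 FPKM in siCNN3. Its log2 fold change was -0.23 (95% interval -0.93 to 0.47, limma adjusted p = 0.745), and -0.47 without siNC replicate 1 to -0.016 without siCNN3 replicate 3. Tlr6, whose product pairs with TLR2 for diacylated lipopeptides, was even across libraries, at 2.40, 2.39 and 2.70 FPKM in siNC and 2.17, 1.83 and 2.53 FPKM in siCNN3. Its log2 fold change of -0.14 had the narrowest interval of the 10, from -0.51 to 0.22 (limma adjusted p = 0.696), and was -0.22 without siCNN3 replicate 3 to -0.063 without siCNN3 replicate 2. The other receptors of the mouse, Tlr5, Tlr7, Tlr8, Tlr9, Tlr11, Tlr12 and Tlr13, were not analysed here.

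Summed over the 5 receptors, the level was 16.4, 62.0 and 20.6 FPKM in siNC and 89.0, 76.8 and 42.2 FPKM in siCNN3. The groups overlapped through siNC replicate 2 and siCNN3 replicate 3. The makeup of the sum differed between libraries as well. Tlr3 made up 3.61%, 6.73% and 5.77% of it in siNC and 36.8%, 31.3% and 9.31% in siCNN3. Tlr4 made up 60.6% in siNC replicate 2 and 62.5% in siCNN3 replicate 3, and 30.7% to 42.2% in the other 4 libraries.

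The co-receptors hand lipopolysaccharide to TLR4. CD14 is a membrane protein encoded on chromosome 18 (chr18:36725067-36726798, minus strand), and Cd14 measured 14.2, 21.9 and 15.4 FPKM in siNC and 15.2, 15.7 and 12.3 FPKM in siCNN3. It was among the steadier genes, with a log2 fold change of -0.22 (95% interval -0.67 to 0.24, limma adjusted p = 0.626), and -0.33 without siNC replicate 1 to -0.038 without siNC replicate 2. Ly96, which encodes MD-2 (chr1:16688051-16709611, plus strand), measured 4.96, 8.93 and 5.27 FPKM in siNC and 11.7, 8.98 and 6.28 FPKM in siCNN3. Its log2 fold change was 0.44 (95% interval -0.22 to 1.10, limma adjusted p = 0.494), and 0.25 without siCNN3 replicate 1 to 0.67 without siNC replicate 2.

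Of the adaptors, MyD88 is encoded on chromosome 9 (chr9:119335934-119341411, minus strand). Myd88 measured 4.33, 7.83 and 8.06 FPKM in siNC and 14.2, 16.7 and 7.92 FPKM in siCNN3. As for Tlr3, replicates 1 and 2 of siCNN3 were above all siNC libraries and replicate 3 was not. The means were 6.74 ± 2.09 and 13.0 ± 4.54 FPKM, and the log2 fold change was 0.83 (SE 0.320, 95% interval 0.07 to 1.59). The limma p was 0.0357 before and 0.268 after adjustment. With each library left out in turn the log2 fold change was 0.58 to 1.13 and was never called, with adjusted p values from 0.0769 to 0.629. The transcript ENSMUST00000035092.6 carried 85.7% to 100% of the Myd88 level in each library. A second transcript, ENSMUST00000139870.1 of 379 bases, was listed at 0.678 and 2.39 FPKM in siCNN3 replicates 1 and 2 and at 0 in the other 4 libraries.

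TRIF, the adaptor of TLR3, is encoded by Ticam1 on chromosome 17 (chr17:56269319-56276786, minus strand). Ticam1 measured 13.1, 10.1 and 13.4 FPKM in siNC and 10.4, 10.7 and 16.3 FPKM in siCNN3. Here siNC replicate 2 was the lowest library of all and siCNN3 replicate 3 the highest, the reverse of their places within each group for Tlr2 and Tlr3. The log2 fold change was 0.01 (95% interval -0.48 to 0.50, limma adjusted p = 0.988), with a sign that depended on the scaling. IRAK1, the kinase that MyD88 recruits through death domains, is encoded on the X chromosome (chrX:74013914-74023918, minus strand), and 11 of its 22 annotated transcripts had values. Irak1 measured 7.81, 15.0 and 10.1 FPKM in siNC and 10.5, 13.7 and 11.6 FPKM in siCNN3, with a log2 fold change of 0.15 (95% interval -0.41 to 0.71, limma adjusted p = 0.796).

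**Figure D3:**
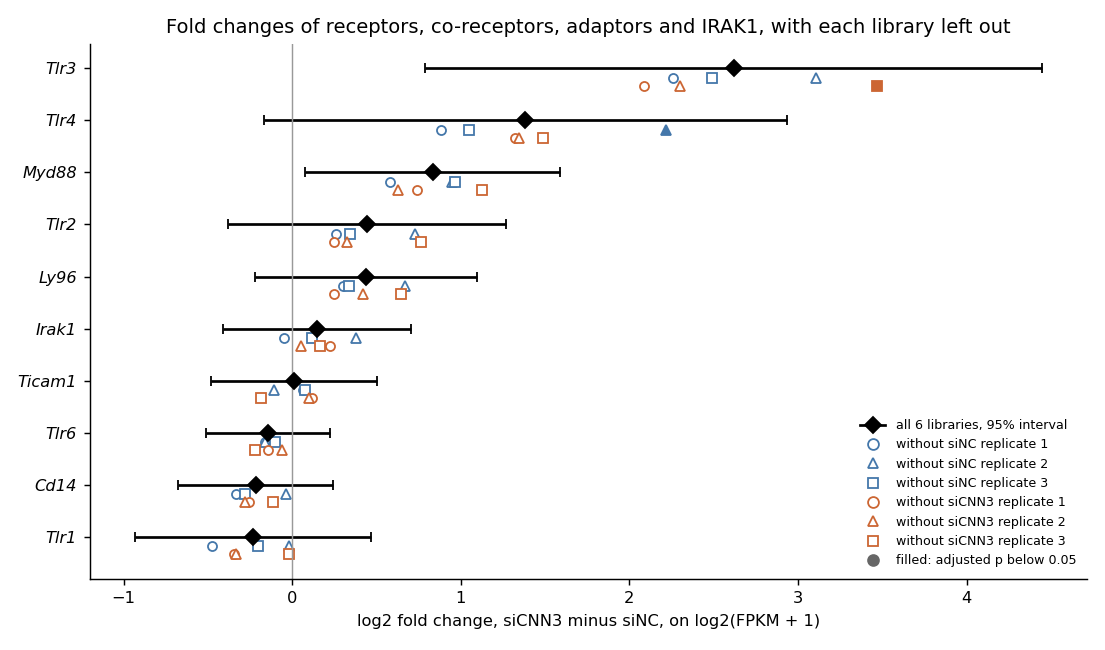
Log2 fold change of each of the 10 genes, siCNN3 minus siNC, on the log2(FPKM + 1) scale (horizontal axis), with the 95% interval of the fit to all 6 libraries as the black bar and the value with each library left out as coloured symbols, filled where the adjusted p was below 0.05. The filled symbols are Tlr3 without siCNN3 replicate 3 at 3.47 and Tlr4 without siNC replicate 2 at 2.22.

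FPKM are per length of transcript, so levels can be set side by side between genes. By mean FPKM the order in siNC was Cd14, Tlr4, Ticam1, Tlr2, Irak1, Myd88, Ly96, Tlr6, Tlr3 and Tlr1. In siCNN3 it was Tlr4, Tlr3, Tlr2, Cd14, Myd88, Ticam1, Irak1, Ly96, Tlr6 and Tlr1. Neighbours in this order mostly overlapped, in 8 of 9 pairs in siNC and 7 of 9 in siCNN3. In siNC only the step from Ly96 to Tlr6 was clear of overlap, and in siCNN3 the steps from Ly96 to Tlr6 and from Tlr6 to Tlr1. Tlr4 was the highest of the 10 in all 3 siCNN3 libraries and in siNC replicate 2, and Cd14 was the highest in the other 2 siNC libraries. Tlr3 ranked 2 in siCNN3 replicates 1 and 2 and ranked 8 or 9 in the other 4 libraries. Its level is a plain sum over transcripts of 382 to 4407 bases, which counts short and long ones alike. Ranks were not taken with transcripts weighted by length, so the rank of Tlr3 holds for the plain sum alone.

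Partners that act as a pair were also compared within a library, as the log2 ratio of FPKM + 1. The added 1 weighs most where a gene is low, as Tlr1 is. In all, 5 such ratios were tested with the exact two-sided permutation test, which for 3 against 3 libraries cannot give a p below 0.1, so none could pass 0.05. The ratio of Cd14 to Tlr4 was 1.33, -0.75 and 1.10 in siNC and -1.08, -1.0 and -1.04 in siCNN3, a difference of -1.60 (exact p = 0.1, adjusted over the 5 ratios 0.25). The knockdown libraries were nearly equal in this ratio and lay below all siNC libraries. The ratio of Tlr1 to Tlr2 was -2.60, -2.63 and -2.22 in siNC and -3.33, -3.20 and -2.96 in siCNN3, a difference of -0.68, again without overlap (exact p = 0.1, adjusted 0.25). The groups overlapped for the other 3 ratios, with differences of -0.95 for Ly96 to Tlr4 (exact p = 0.4), -0.59 for Tlr6 to Tlr2 (exact p = 0.2) and -0.82 for Ticam1 to Myd88 (exact p = 0.3).

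The rest of the pathway was then described from lists written from general knowledge, read against the 1.73% of genes called higher and the 0.336% called lower. No accessory, adaptor or kinase gene of these lists passed the test. Of the accessory and folding genes, 7 were tested and 0 called, with 0 at an unadjusted p below 0.05 and a median log2 fold change of -0.10. Tirap, the bridging adaptor of MyD88 at TLR2 and TLR4, was named after its value was seen. It had a log2 fold change of -0.24 (limma adjusted p = 0.676), and -0.45 without siNC replicate 1 to -0.09 without siCNN3 replicate 3. With transcripts weighted by length it was -0.06. Of 24 kinases and ubiquitin enzymes, from the IRAK and TRAF proteins to TBK1 and the IκB kinases, 0 were called. At an unadjusted p below 0.05 there were 2, 1 in each direction. The median was -0.13, and -0.15 without siNC replicate 1 to -0.03 without siCNN3 replicate 3.

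Regulators and outputs of the pathway follow, and the lists were not tested against each other. Of 13 negative regulators 2 were called higher, Trim30a with a log2 fold change of 4.19 (SE 0.637, adjusted p = 0.0304) and Nlrc5 with 2.59 (SE 0.326, adjusted p = 0.0157), and 0 lower by limma. TRIM30a restrains TRAF6-dependent signaling, and NLRC5 is best known as a transactivator of MHC class I genes. The median of the list was 0.01. Both calls of this list were lost with the replicate block. Nlrc5 had a log2 fold change of 0.75 (limma adjusted p = 0.621) when transcripts at 0 in any library were left out. Of 13 transcription factors 3 were called higher, Irf7 with 4.36 (limma adjusted p = 0.0305), Atf3 with 2.03 (0.0099) and Irf5 with 1.73 (0.0170), and 0 lower. The call of Irf7 was lost with a pseudocount of 0.1 and with the replicate block, and that of Irf5 with transcripts above 0 in all libraries and with the block. IRF7 amplifies the type I interferon response, IRF5 acts downstream of MyD88, and ATF3 is a stress-induced factor known to restrain TLR4-driven cytokines. The median of this list was 0.31. Without siNC replicate 2 the calls were 3 and 4 on these 2 lists and without siCNN3 replicate 3 they were 3 and 3. Without siNC replicate 1 they were 0 and 2, without siNC replicate 3 they were 0 on both, and without siCNN3 replicate 1 or 2 they were 0 and 1. Irf3, the factor that TRIF signaling activates at the protein level, was named after its value was seen and had a log2 fold change of 0.08 (limma adjusted p = 0.904).

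Of the targets of NF-κB, 14 were tested and 2 called higher, the cytokine gene Il6 with a log2 fold change of 1.70 (limma adjusted p = 0.0333) and the chemokine gene Ccl7 with 1.55 (0.0492), and 0 lower, with a median of 0.25. Il6 measured 13.2, 7.59 and 5.66 FPKM in siNC and 30.6, 30.7 and 26.7 FPKM in siCNN3. The 3 knockdown libraries were close together and clear of siNC. The 2 calls on this list became 0 with quantile normalization or the replicate block, 1 without siNC replicate 1, 3 without siCNN3 replicate 3, and 0 when siNC replicate 3, siCNN3 replicate 1 or siCNN3 replicate 2 was left out. The median was 0.03 without siCNN3 replicate 3. Of the 22 genes of the interferon loop that TLR3 and TLR4 can feed through TRIF, and that cytosolic RNA sensors feed as well, 14 were called higher and 0 lower, with a median of 3.48. The largest were the chemokine genes Cxcl10, at 6.30, and Ccl5, at 5.41, and the antiviral gene Ifit3, at 5.88, with limma adjusted p values of 0.0152, 0.0035 and 0.0491. The call of Ifit3 was lost with a pseudocount of 0.1, no filter, no trend, the replicate block and transcripts above 0 in all libraries, at adjusted p values of 0.0510 to 0.0678. Usp18 is on both this list and that of the negative regulators, and was not called (log2 fold change 4.74, limma adjusted p = 0.0525). Ccl5 was called with any library left out, whereas the number called on this list ranged from 2 to 16 when single libraries were left out. It was 5 without siNC replicate 1, 2 without siNC replicate 3, 2 without either of replicates 1 and 2 of siCNN3, 14 without siNC replicate 2 and 16 without siCNN3 replicate 3.

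**Figure D4:**
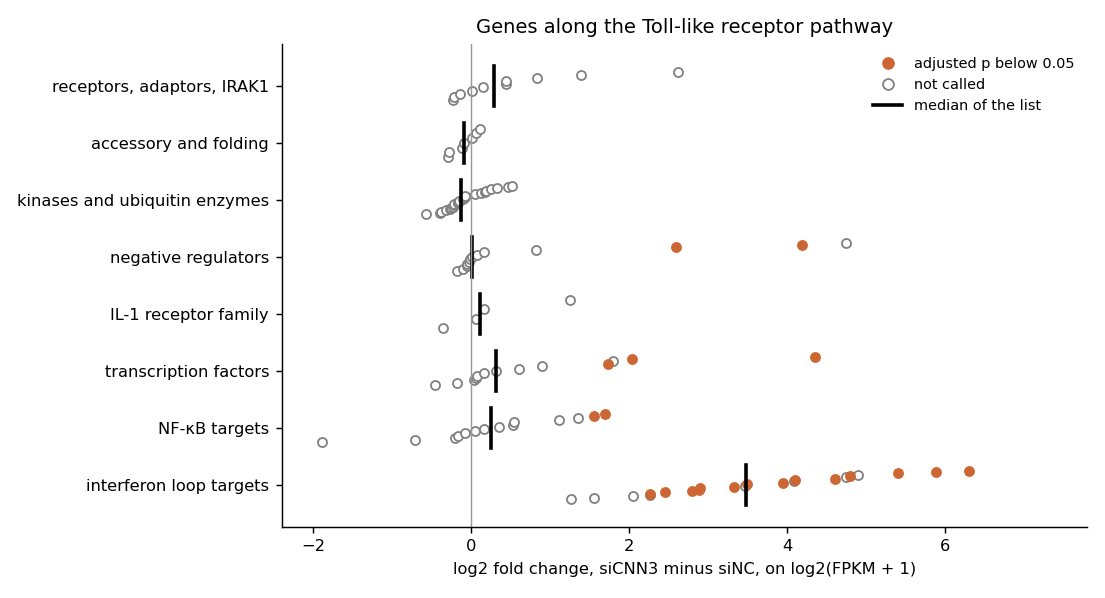
Log2 fold changes, siCNN3 minus siNC, on the log2(FPKM + 1) scale (horizontal axis) of the tested genes of 8 lists along the pathway, 1 point per gene, filled where the adjusted p was below 0.05, with the median of each list as a bar. The receptors and adaptors have a median of 0.29, the kinases and ubiquitin enzymes -0.13 and the interferon loop 3.48.

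Libraries also stood apart within their group in the interferon loop. Relative to the mean of the 3 siNC libraries, the 22 genes lay at -0.96, 1.02 and -0.06 in siNC and 3.80, 4.08 and 2.95 in siCNN3, as a mean log2 difference. Thus siNC replicate 2 was the highest of its group and siCNN3 replicate 3 the lowest of its group. The same held for 6 of the 10 genes, Tlr1, Tlr2, Tlr3, Tlr4, Cd14 and Ly96, and for 31.1% of all genes tested. This order had been seen in the 10 genes before it was counted, so the count is only a description. The order was the reverse for Ticam1 and, by a narrow margin in siNC, for Tlr6, as for 19.8% of all genes tested, and Myd88 and Irak1 had neither order. These libraries stood apart over all genes too. The median difference between genes was 0.225 for siNC replicate 1 and siCNN3 replicate 3, less than the 0.323 for siNC replicates 1 and 2 and the 0.320 for siCNN3 replicates 1 and 3. The interferon gene Ifnb1, chosen after its values were seen, was listed with values of 0, 0.225 and 0 FPKM in siNC, against 6.60, 7.78 and 1.01 FPKM in siCNN3 (limma adjusted p = 0.0976). The part of this difference between libraries in the levels of the receptors was not tested. Of 11 muscle markers tested 3 were called lower, Acta1 with a log2 fold change of -2.12, Tnnt1 with -1.71 and Myh3 with -1.38, and 0 higher, with a median of -0.85. With the replicate block only Acta1 of these markers was called (limma adjusted p = 0.0293). Without siCNN3 replicate 3 there were 4 lower and 1 higher. The number called lower was 1 without siNC replicate 3 or either of siCNN3 replicates 1 and 2. Their part in the levels of the receptors was not tested.

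The genes whose pattern was most like that of Tlr3 over the 6 libraries, by the Pearson correlation of log2(FPKM + 1), were Nup43 at 0.999, Serpinb9 at 0.998, Slfn9 at 0.997, and Klhdc4 and Adh7 at 0.996 each. For Tlr1, the gene with the lowest log2 fold change of the 10, they were E2f8 at 0.998, Espl1, Cbx6 and Gm10184 at 0.997 each and Ggn. With 6 libraries in 2 groups that share their conditions, such values are a description of these libraries.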

How the data were processed

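The RNA selection, read numbers and the program that estimated expression are not given in the sources used here. The authors deposited FPKM per Ensembl transcript for 3 siNC and 3 siCNN3 libraries (24023 transcripts), and the submitters' processing notes name Bowtie 0.12.2, mm8 and mm10 without a role. Identifiers were matched without version to GENCODE transcripts of GRCm38. This matched 23949, and the 74 others, with 0.159% to 0.220% of the FPKM, were left out. FPKM were summed by gene.

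After removal of genes with a mean under 0.5 FPKM, log2(FPKM + 1) was fitted in R 4.3.3 by limma 3.58.1. Its spread followed the mean level (trend), p-values were adjusted after Benjamini and Hochberg, and the threshold was 0.05, since the methods name no test for the sequencing data. A fold change on this scale understates that of low genes. The script was tested on simulated data. Without counts, depth and counting error are unknown. Alternatives were a pseudocount of 0.1, no filter or one at 5 FPKM, other scalings, a replicate block, no trend, each gene's own spread, other sums over transcripts and each library left out. Same-numbered libraries did not deviate together in a consistent way (correlations -0.28, 0.31 and -0.02 for replicates 1, 2 and 3), so the numbers were not used as pairs. Across numbers they reached 0.44, for siNC replicate 1 with siCNN3 replicate 3, and -0.45, for siNC replicate 2 with siCNN3 replicate 3.

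The 10 genes and all lists were chosen with earlier results of these data known. All 10 are named, and of each list up to 3 called genes with the largest change, plus Cnn3 and the 5 genes most correlated with the members of largest and smallest log2 fold change. Any other gene named, such as a marker, Usp18 or a receptor of the IL-1 family, was picked with its values in view. Upstream windows are from RefSeq and siRNAs from the study's supplement.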

Additional observations from a re-analysis of the deposited data

How the results depend on the processing

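With the alternatives that keep all 6 libraries, limma called 0 of the 10 genes in either direction. The filter at 5 FPKM left 8 of them, without Tlr1 and Tlr6. Leaving out single libraries gave 0 to 1 called higher, Tlr4 without siNC replicate 2 and Tlr3 without siCNN3 replicate 3, and 0 called lower. The direction held for 8 of the 10 genes. Ticam1 turned to -0.025 with median-of-ratios scaling and -0.061 with quantile normalization, and ranged from -0.18 to 0.12 with single libraries left out, and Irak1 from -0.049 to 0.38. Over all genes, 200 higher calls became 62 with the replicate block, 125 with transcripts above 0 in all libraries, 0 with each gene's own spread (1084 at an unadjusted p below 0.05) and 16 to 444 with single libraries left out. The 39 lower calls became 63 with median-of-ratios scaling, 93 with quantile normalization, 6 with the replicate block, 0 with each gene's own spread (716 unadjusted) and 4 to 161 with single libraries left out. The causes were not tested. Among the fits with a library left out, the fewest calls, 16 and 4, came without siNC replicate 3 and the most without siCNN3 replicate 3. Of the calls, 83.7% were higher with the deposited scaling and 68.2% after quantile normalization, where the higher calls were 199 and the lower calls had risen as given above. The replicate block took the calls from 14 to 7 in the interferon loop, from 2 to 0 among negative regulators and NF-κB targets, and from 3 to 1 among transcription factors and muscle markers. With transcripts above 0 in all libraries the interferon loop had 7 calls, with 17 of its 22 genes tested. NF-κB targets had 1 call with that setting, a pseudocount of 0.1, no filter, median-of-ratios scaling or no trend. With each gene's own spread these lists had 0 calls. The length-weighted sum, added after seeing the data, gave 202 and 38.

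Of the named list genes, Acta1 and Ccl5 were called with each library left out, Atf3 in 5 of the 6 fits, Irf7, Myh3 and Tnnt1 in 3, Ccl7, Cxcl10, Il6, Irf5, Nlrc5 and Trim30a in 2 and Ifit3 in 1. Depth is unknown, so the levels of low genes such as Tlr1 carry an error that cannot be given beyond the spread between libraries.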

Other observations

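Receptors of the IL-1 family signal through the same MyD88 and IRAK1 as the Toll-like receptors. Of 7 such genes 4 were tested and 0 were called by limma in either direction. The median log2 fold change was 0.11, with 0.025 without siNC replicate 1 and 0.19 without siNC replicate 3. At an unadjusted p below 0.05 there was 1 gene. That gene, Il1rl1, which encodes the receptor of IL-33, was named after its values were seen. It measured 4.52, 10.8 and 8.29 FPKM in siNC and 22.0, 18.8 and 16.8 FPKM in siCNN3, without overlap between the groups, with a log2 fold change of 1.25 (SE 0.283, limma adjusted p = 0.0857). The other tested receptors are named in the same way. Il1r1, the receptor of IL-1 itself, measured 17.3 to 21.8 FPKM in siNC and 13.0 to 17.4 FPKM in siCNN3, with a log2 fold change of -0.36 (limma adjusted p = 0.323). Il1rap, the shared co-receptor, had a log2 fold change of 0.05 and Il18rap one of 0.16.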
